A study of Mus musculus with 24 samples.

Results

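Hematopoietic stem cells sit at the top of blood formation, and a small set of genes is known to mark them and to keep them self-renewing. The set described here holds 33 such genes, chosen by symbol from what is known of stem cells and not by a cutoff on measured values. Earlier results of these data were known when they were chosen, so the list is not independent of the data. It holds 13 transcription factors, 3 transcription cofactors or RNA-binding regulators, 11 receptors, ligands and surface proteins, and 6 intracellular proteins of signalling, the cell cycle and metabolism. All 33 were found by symbol among the 55414 genes of the deposited count files, and all 33 passed the filter on low counts. In bone marrow the transcription factors of the list act together, with Lmo2 bridging Tal1 or Lyl1 to Gata factors, and with Runx1, Erg and Fli1 bound beside them on many of the same elements. The surface proteins are used to sort the cells, among them Kit and Sca-1 (the product of Ly6a), and the ligand Angpt1 acts on the receptor Tek, a pair known for its part in stem cell quiescence. As cells leave the stem state they lose Hlf, Mecom, Procr and Fgd5 early, while Kit, Runx1 and Gata2 continue in progenitors.

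The study measured polyadenylated RNA in 24 libraries of C57BL6/J mice, each made from 30000 sorted bone marrow cells, with 2 libraries in each of 12 groups. Hematopoietic stem and progenitor cells (HSPCs) that were Srcap mutant or wild type (WT) were taken untreated, 12 hours after intraperitoneal doxorubicin (a DNA-damaging chemotherapy drug), 2 weeks after transplantation, or 20 weeks after competitive transplantation, and cells labelled B cells and T cells of both genotypes were taken 2 weeks after transplantation. SRCAP is the ATPase of a chromatin remodeller that places the histone variant H2A.Z, and the series asks how its mutation acts in clonal blood formation. The labels give the mutant as "Srcap mutant" without naming the allele, and the names in the file headers carry "het" for untreated, doxorubicin and 20-week mutants and "Mut" for 2-week mutants. All 16 HSPC header names contain LSK, the usual term for a lineage-negative, Sca-1 positive, Kit positive sort, so Ly6a and Kit also stand for the gate. The design text names donor CD45.2+ cells for the 20-week transplants. Nothing given here says whether any 2 libraries of a group came from separate animals, so p-values measure the spread between libraries, which may be technical.

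Total counts ranged between 26369992 and 78432483 per library. The conditions differed in more than treatment. The 2-week HSPC libraries held 545 to 1339 CPM (a gene's reads scaled to a common library total) of Xist, the RNA of the inactive X chromosome, while no other HSPC library exceeded 0.484 CPM, so sex, file directory and transplantation cannot be told apart at 2 weeks, although 0 of the 33 genes lie on a sex chromosome. The file headers name 3 directories, and what a directory stands for is not said. The directory may also differ between 20-week and untreated HSPCs, and its part in the 20-week changes was not tested. Immunoglobulin genes took 3.66 to 6.22% of counts in untreated HSPCs, 0.845 to 1.86% at 2 weeks and 16.9 to 26.7% at 20 weeks. WT untreated replicate 1 carried 2.47% of its counts in 12 granulocyte markers, against at most 0.042% in the other 3 untreated libraries. The libraries labelled T cells had 14.4 to 16.5% of counts in the same markers and only 0.0883 to 1.56 CPM of Cd3e, a part of the T cell receptor complex, so the label goes against their content and they are called T-labelled libraries throughout. Srcap itself stood at 2.83 to 14.4 CPM in HSPCs. Its values were 13.7 and 11.8 CPM in mutant and 8.71 and 8.47 CPM in WT untreated libraries, 10.8 and 11.9 CPM in mutant and 8.93 and 10.7 CPM in WT doxorubicin libraries, 11.7 and 13 CPM in mutant and 14.4 and 13.7 CPM in WT 2-week libraries and 2.83 and 7.92 CPM in mutant and 6.11 and 7.18 CPM in WT 20-week libraries. Gene counts do not show the mutation, so they check no genotype label.

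Per length of transcript, the list spanned a wide range in HSPCs. In TPM, a level scaled to exon length and to a fixed library sum, the median over the 16 HSPC libraries was highest for Lmo2, at 593 TPM, followed by the redox and glucose-uptake regulator Txnip at 525 TPM, Ly6a at 413 TPM, the sialomucin Cd34 at 298 TPM and the ETS factor Erg at 172 TPM. Hlf ranked 9 of 33, at 108 TPM. The lowest medians belonged to Prdm16 at 4.65 TPM, Ctnnal1 at 4.36 TPM, Socs2 at 4.08 TPM and Zbtb16 at 1.35 TPM. Depth was ample for most: in 31 of the 33 genes every HSPC library had 60 reads or more, and the exceptions were Sult1a1, with a lowest count of 31 reads, and Cdkn1c, with a lowest count of 1 read. Together the 33 genes took 0.487 to 0.609% of counts in untreated HSPCs, 0.459 to 0.616% after doxorubicin, 0.282 to 0.334% at 2 weeks and 0.48 to 0.583% at 20 weeks. The sum was lowest at 2 weeks, where no library reached the lowest value of another HSPC condition. In the B cell libraries it was 0.12 to 0.135% and in the T-labelled libraries 0.13 to 0.136%, with Txnip the most abundant of the 33 in all 8. In bulk RNA, fewer cells of a type and less RNA per cell cannot be told apart.

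**Figure D1:**
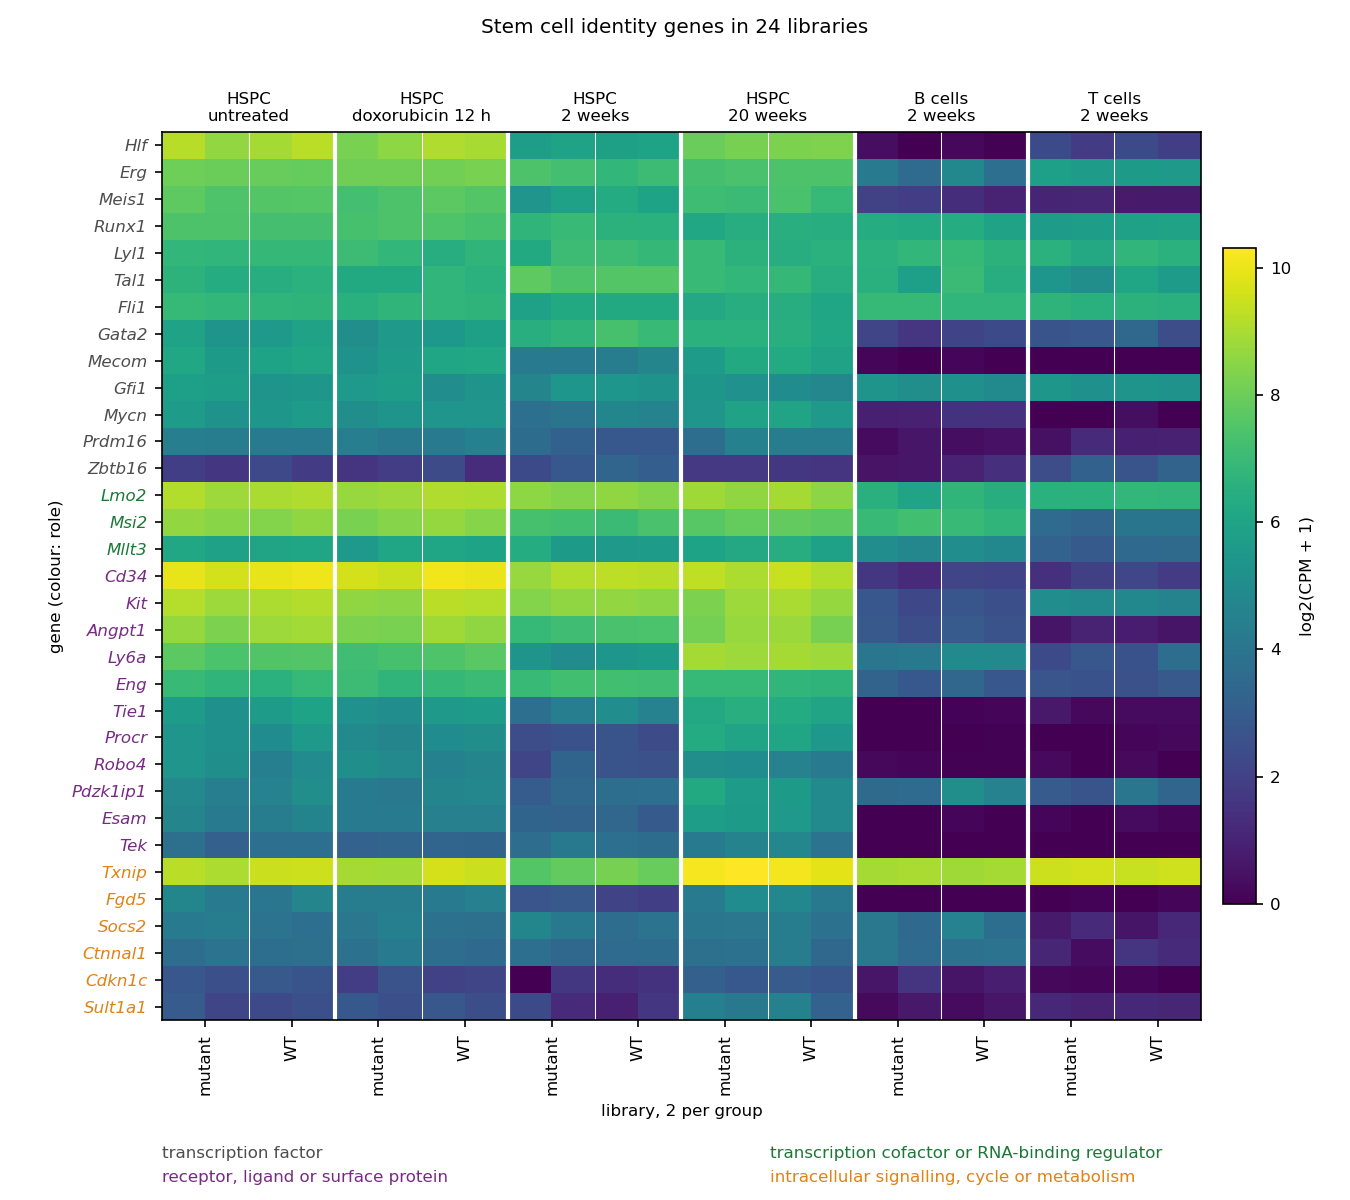
Expression of the 33 stem cell identity genes (rows, coloured by role and ordered within a role by median CPM) in 24 libraries (columns, mutant left of WT in each condition), as log2(CPM + 1). The 2-week HSPC columns are darker than the untreated ones for most genes, such as Hlf at 53.7 to 61.4 CPM against 393 to 601 CPM, and most rows are darker still in B cell and T-labelled libraries.

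At 2 weeks after transplantation most of the stem cell identity genes stood below their untreated level, some of them far below. Of the 33 genes, 23 fell and 4 rose at 2 weeks against untreated HSPCs with both genotypes pooled (edgeR's quasi-likelihood test, adjusted p under 0.05), beside 24.9% of all 19522 genes tested that fell and 21.2% that rose. The median log2 change was -1.12 over the 33 genes and -0.14 over all genes. The genes that fell most, Hlf, Procr, Robo4, Fgd5 and Ly6a, were 4.40-fold to 8.30-fold lower, while Gata2, Tal1, Zbtb16 and Eng rose. At 20 weeks after competitive transplantation the counts were different: 13 genes rose and 3 fell against the same untreated libraries, beside 13.1% and 10.6% of all genes, with a median log2 change of 0.39 over the 33 genes and 0.02 over all. Both comparisons share the 4 untreated libraries, so their values are given side by side and not correlated. CPM values are scaled to library totals only; the fit's scaling (TMM) adds 0.09 to the log2 change at 2 weeks and 0.36 at 20 weeks. Without that scaling 9 of the 33 genes rose and 8 fell at 20 weeks, and the median over all genes moved to -0.33. Mecom, Tal1, Mycn and Eng then lost their calls, and Cd34, Erg, Fli1, Meis1 and Gfi1 were called lower. The share of all genes called without scaling is not given here, so the unscaled counts are not read as a result about the 33 genes.

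Among the transcription factors, Hlf, a PAR bZIP factor that marks stem cells and is needed for their maintenance, changed most. Its gene lies on chromosome 11 at 90227362 to 90281721 (mm39, minus strand). Hlf had 585 and 393 CPM in mutant and 481 and 601 CPM in WT untreated libraries and 53.7 and 61.2 CPM in mutant and 57.3 and 61.4 CPM in WT 2-week libraries. At 20 weeks Hlf had 249.7 and 289 CPM in mutant and 305 and 314 CPM in WT libraries. All 2-week libraries lay far below the rest, and the 20-week libraries lay between, below every untreated one. The log2 change was -3.05 ± 0.14 at 2 weeks (adjusted p = 2.64e-11) and -0.47 ± 0.13 at 20 weeks (adjusted p = 0.0147), a 20-week call lost in either genotype alone and in 4 of 8 refits that left out 1 library. Meis1, a homeodomain partner of Hox proteins, followed the same order, with 213 and 175 CPM in mutant and 184 and 194 CPM in WT untreated libraries and 40.9 and 58.6 CPM in mutant and 79.2 and 61.4 CPM in WT 2-week libraries. At 20 weeks Meis1 had 139 and 129 CPM in mutant and 161 and 120.2 CPM in WT libraries. It fell by 1.61 ± 0.12 on the log2 scale at 2 weeks (adjusted p = 8.45e-09), and its change of -0.13 ± 0.12 at 20 weeks did not pass (adjusted p = 0.48), although all 4 CPM values were below the untreated ones. Mecom, whose product EVI1 is required for self-renewal, had 72 and 47.7 CPM in mutant and 62.8 and 65 CPM in WT untreated libraries and 17.3 and 18.1 CPM in mutant and 19.3 and 24.8 CPM in WT 2-week libraries. At 20 weeks Mecom had 48.8 and 75.2 CPM in mutant and 78 and 60.5 CPM in WT libraries. Every 2-week value was less than the lowest untreated one, while untreated and 20-week values overlapped. Its log2 change was -1.56 ± 0.16 at 2 weeks (adjusted p = 4.31e-07) and 0.44 ± 0.16 at 20 weeks (adjusted p = 0.0488), and the 20-week call was lost in 6 of 8 refits that left out 1 library and in 8 of 9 other alternatives, DESeq2, the replicate block and either genotype alone among them.

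Prdm16, a zinc finger factor of stem cell maintenance, and Mycn, a Myc family member, also fell at 2 weeks. Prdm16 had 20.2 and 19 CPM in mutant and 17.6 and 18.2 CPM in WT untreated libraries and 11.4 and 8.27 CPM in mutant and 6.15 and 6.06 CPM in WT 2-week libraries. At 20 weeks Prdm16 had 12.2 and 22.3 CPM in mutant and 19 and 19 CPM in WT libraries. Mycn had 51 and 37.8 CPM in mutant and 42.8 and 48.9 CPM in WT untreated libraries and 12.7 and 14.6 CPM in mutant and 25.9 and 23.2 CPM in WT 2-week libraries. At 20 weeks Mycn had 40.5 and 59.6 CPM in mutant and 63.1 and 45 CPM in WT libraries. The groups of 4 did not overlap between 2 weeks and untreated for either gene, and the lower pair of Mycn values at 2 weeks came from the mutants. The log2 change at 2 weeks was -1.18 ± 0.20 for Prdm16 (adjusted p = 6.53e-05) and -1.22 ± 0.15 for Mycn (adjusted p = 1.91e-06). At 20 weeks Mycn rose by 0.56 ± 0.14 (adjusted p = 0.00807), and Prdm16 stood at 0.32 ± 0.19 (adjusted p = 0.244). The Mycn call was lost in either genotype alone and without mutant 20-week replicate 2 or untreated mutant replicate 2.

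The ETS factors Erg and Fli1 and the core-binding factor subunit Runx1 moved less. Erg had 258 and 253 CPM in mutant and 240.1 and 230.2 CPM in WT untreated libraries and 170.0 and 149 CPM in mutant and 114 and 131 CPM in WT 2-week libraries. At 20 weeks Erg had 154 and 160.4 CPM in mutant and 174 and 170.1 CPM in WT libraries. Fli1 had 119.9 and 111 CPM in mutant and 105 and 103 CPM in WT untreated libraries and 59.3 and 75.1 CPM in mutant and 75.5 and 75.6 CPM in WT 2-week libraries. At 20 weeks Fli1 had 72.9 and 84.2 CPM in mutant and 85.1 and 66.1 CPM in WT libraries. Runx1 had 173 and 173 CPM in mutant and 153 and 152 CPM in WT untreated libraries and 106 and 127 CPM in mutant and 98.2 and 94.8 CPM in WT 2-week libraries. At 20 weeks Runx1 had 70.4 and 85.3 CPM in mutant and 89.9 and 83.7 CPM in WT libraries. For all 3 genes every 2-week and every 20-week CPM value lay below every untreated one. At 2 weeks the log2 changes were -0.72 ± 0.10 for Erg (adjusted p = 1.16e-05), -0.54 ± 0.10 for Fli1 (adjusted p = 0.000333) and -0.53 ± 0.10 for Runx1 (adjusted p = 0.000355). At 20 weeks Runx1 fell by 0.62 ± 0.10 on the log2 scale (adjusted p = 0.000359), a call lost in WT libraries alone. Erg at -0.22 ± 0.10 (adjusted p = 0.132) and Fli1 at -0.15 ± 0.10 (adjusted p = 0.321) did not pass.

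Gata2, Tal1 and Zbtb16 went the other way at 2 weeks. Gata2, a zinc finger factor of stem cells and of mast cell and megakaryocyte progenitors, had 60.6 and 39.2 CPM in mutant and 44.8 and 61.1 CPM in WT untreated libraries and 89.4 and 104 CPM in mutant and 159 and 125 CPM in WT 2-week libraries. At 20 weeks Gata2 had 93.8 and 93.6 CPM in mutant and 87.8 and 70.5 CPM in WT libraries. It rose at both times, with all 8 transplant libraries above all untreated ones, by 1.27 ± 0.15 at 2 weeks (adjusted p = 1.70e-06) and 1.10 ± 0.15 at 20 weeks (adjusted p = 7.10e-05). Tal1, a basic helix-loop-helix factor of stem, erythroid and megakaryocyte cells, had 99.6 and 81.3 CPM in mutant and 85 and 95.6 CPM in WT untreated libraries and 216 and 171 CPM in mutant and 187 and 186 CPM in WT 2-week libraries. At 20 weeks Tal1 had 127 and 112 CPM in mutant and 116 and 85.8 CPM in WT libraries. The 2-week libraries were the highest of the 3 conditions, and its log2 change was 1.16 ± 0.11 at 2 weeks (adjusted p = 1.62e-07) and 0.63 ± 0.11 at 20 weeks (adjusted p = 0.000577), which without the TMM scaling was 0.28 and no longer called. The 20-week call of Tal1 was also lost in WT libraries alone. Zbtb16, the gene of the factor PLZF, was scarce, with 2.72 and 2.12 CPM in mutant and 3.8 and 2.47 CPM in WT untreated libraries and 3.92 and 6.22 CPM in mutant and 9.27 and 7.47 CPM in WT 2-week libraries. At 20 weeks Zbtb16 had 2.27 and 2.26 CPM in mutant and 2.16 and 1.94 CPM in WT libraries. Its log2 change was 1.32 ± 0.34 at 2 weeks (adjusted p = 0.00374), lost when mutant libraries were fitted alone, and 0.00 ± 0.34 at 20 weeks (adjusted p = 1). Lyl1, a relative of Tal1, and Gfi1, a repressor that restrains stem cell division, were called at neither time: Lyl1 stood at 108 to 116 CPM untreated, 75.7 to 132 CPM at 2 weeks and 84.8 to 123 CPM at 20 weeks, and Gfi1 at 38.9 to 55.1, 24.6 to 41.3 and 26 to 42.6 CPM at the same stages.

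Erythroid, megakaryocyte and progenitor genes moved beside Gata2 and Tal1. All 9 erythroid markers rose at 2 weeks, and their summed share was 0.0323 to 0.12% of counts at 2 weeks, against 0.00172 to 0.0272% in untreated HSPCs. Of the megakaryocyte markers 5 of 8 tested rose and 1 fell at 2 weeks, with a summed share of 0.015 to 0.0323%, against 0.0141 to 0.0205%. Of 20 genes of multipotent and committed progenitors 15 rose and 4 fell: Mpo, the myeloperoxidase of granulocyte and monocyte precursors, was at 2206 and 5257 CPM in mutant and 4119.6 and 3979 CPM in WT 2-week libraries, against 127 and 164 CPM in mutant and 168 and 123 CPM in WT untreated libraries, and the erythroid factor Gata1 rose by 5.70 ± 0.36 (adjusted p = 5.60e-07). Markers of lymphoid cells moved in the direction of the 23 genes that fell. All 8 plasma cell markers fell (median log2 change -1.54) and took 0.0604 to 0.122% of counts at 2 weeks, against 0.357 to 0.697% untreated. Of the B cell markers 7 of 10 fell, at 0.0434 to 0.123% of counts, against 0.117 to 0.186%, and of the T cell markers 5 of 10 fell, at 0.00765 to 0.0127%, against 0.0261 to 0.0402%. Among the progenitor genes Flt3, the receptor of lymphoid-primed progenitors, fell by 1.67 ± 0.12 on the log2 scale (adjusted p = 8.00e-09), as did Satb1 by 1.27 ± 0.10 (adjusted p = 1.01e-08). The part of these cells in the change of the stem cell genes was not tested.

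The 3 cofactors and RNA-binding regulators differed. Lmo2, the LIM-only bridge of the Tal1 and Gata complex, had 556 and 439 CPM in mutant and 506 and 538 CPM in WT untreated libraries and 372 and 335 CPM in mutant and 388 and 340.0 CPM in WT 2-week libraries. At 20 weeks Lmo2 had 460.4 and 381 CPM in mutant and 482 and 361 CPM in WT libraries. Msi2, an RNA-binding protein that sustains self-renewal, had 394 and 350.4 CPM in mutant and 337 and 382 CPM in WT untreated libraries and 158 and 145 CPM in mutant and 128 and 160.2 CPM in WT 2-week libraries. At 20 weeks Msi2 had 197 and 234 CPM in mutant and 228 and 207 CPM in WT libraries. Both lay below every untreated library at 2 weeks, and Msi2 did so at 20 weeks too. The log2 change at 2 weeks was -0.42 ± 0.11 for Lmo2 (adjusted p = 0.0031), not called in mutant libraries alone, and -1.22 ± 0.12 for Msi2 (adjusted p = 1.66e-07). At 20 weeks Lmo2 stood at 0.08 ± 0.11 (adjusted p = 0.649) and Msi2 at -0.40 ± 0.12 (adjusted p = 0.0197). The Msi2 call was lost in either genotype alone and in 4 of 8 refits that left out 1 library. Mllt3, a partner of the methyltransferase DOT1L that supports stem cell maintenance, was called at neither time and held 58.5 to 69.1 CPM untreated, 45.9 to 83.2 CPM at 2 weeks and 58 to 84.5 CPM at 20 weeks.

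**Figure D2:**
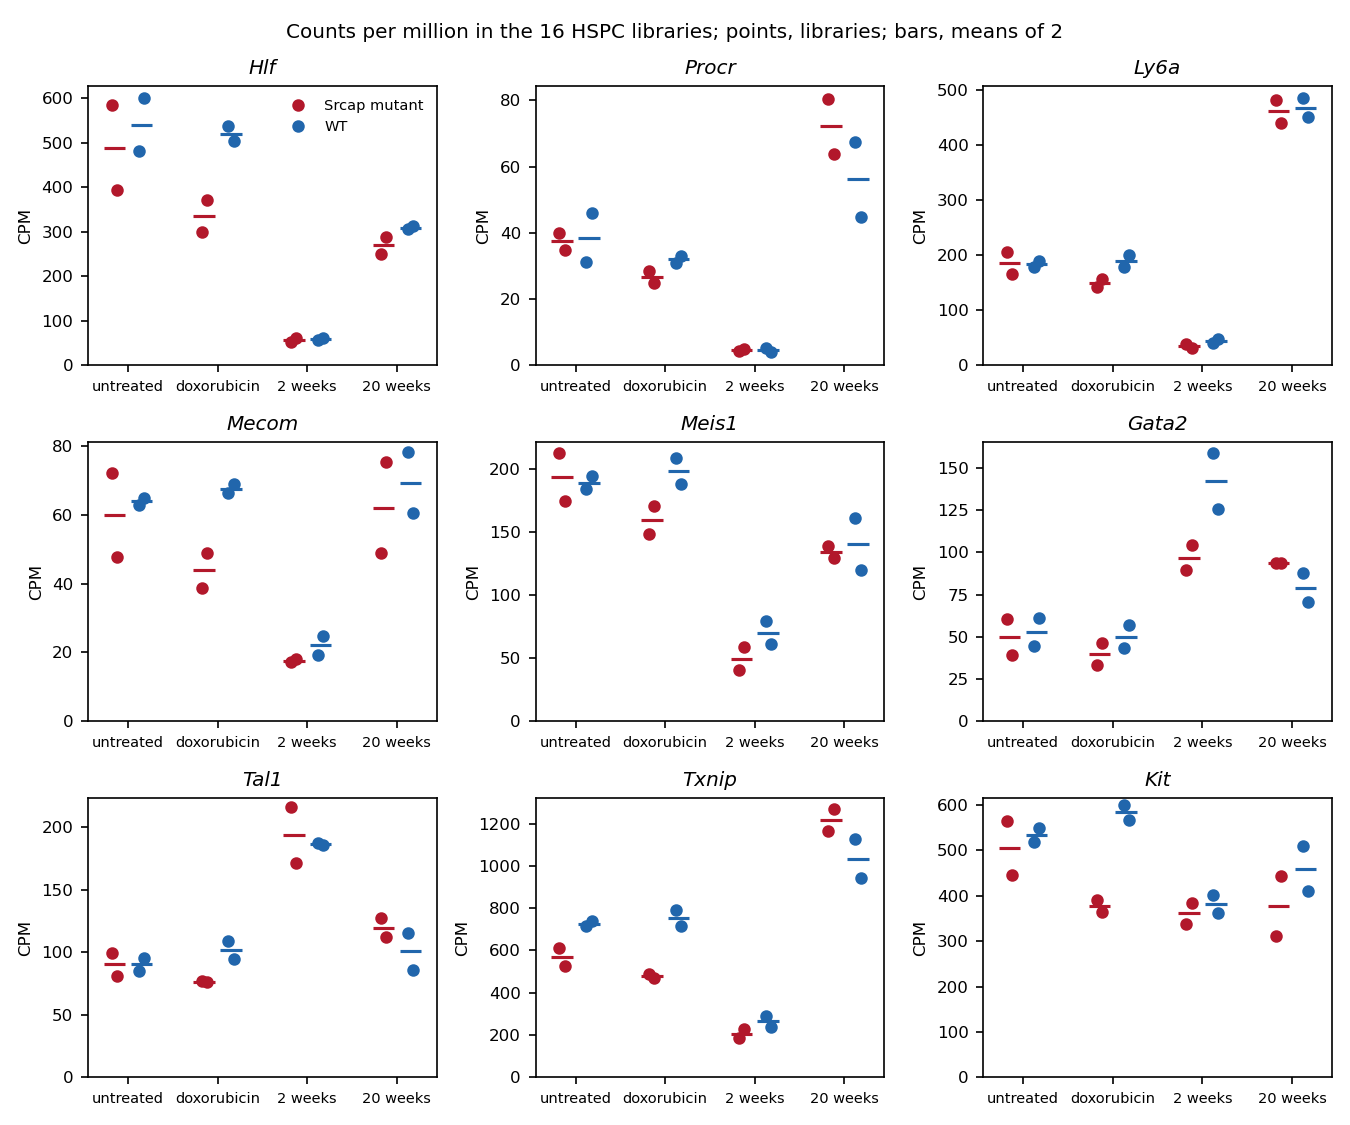
CPM of 9 stem cell identity genes in the 16 HSPC libraries, by condition, with mutants in red left of WT in blue; points are libraries and bars are means of 2. Hlf, Procr, Ly6a, Mecom and Meis1 have their lowest values at 2 weeks, Gata2 and Tal1 are above the untreated libraries there, and Txnip is at 188 to 292 CPM at 2 weeks and 943 to 1267 CPM at 20 weeks.

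Among the surface proteins, Procr and Ly6a were low at 2 weeks and high at 20 weeks. Procr, the endothelial protein C receptor used to enrich stem cells (chromosome 2, 155593037 to 155597391, mm39, plus strand), had 40.0 and 34.9 CPM in mutant and 31.1 and 45.9 CPM in WT untreated libraries and 4.44 and 5.08 CPM in mutant and 5.32 and 4.1 CPM in WT 2-week libraries. At 20 weeks Procr had 80.5 and 63.8 CPM in mutant and 67.6 and 44.7 CPM in WT libraries. The 2-week values were far below the rest, and 3 of 4 20-week values exceeded every untreated one. Its log2 change was -2.92 ± 0.15 at 2 weeks (adjusted p = 1.16e-10) and 1.09 ± 0.14 at 20 weeks (adjusted p = 4.15e-05). Ly6a, the gene of the sort marker Sca-1 (chromosome 15, 74866726 to 74869880, mm39, minus strand), had 206 and 165 CPM in mutant and 179 and 189 CPM in WT untreated libraries and 38.9 and 30.8 CPM in mutant and 41.1 and 48 CPM in WT 2-week libraries. At 20 weeks Ly6a had 482 and 440.4 CPM in mutant and 484 and 450.0 CPM in WT libraries. The 3 conditions did not overlap. It fell 4.40-fold at 2 weeks (log2 -2.14 ± 0.12, adjusted p = 2.36e-10) and rose 3.22-fold at 20 weeks (log2 1.69 ± 0.12, adjusted p = 9.05e-08). Kit, the receptor for stem cell factor and the other sort marker, had 564 and 446 CPM in mutant and 518 and 549 CPM in WT untreated libraries and 338 and 385 CPM in mutant and 403 and 363 CPM in WT 2-week libraries. At 20 weeks Kit had 311 and 443 CPM in mutant and 509 and 411 CPM in WT libraries. Its log2 change was -0.40 ± 0.12 at 2 weeks (adjusted p = 0.0135), lost in either genotype alone and without untreated mutant replicate 1, and 0.04 ± 0.12 at 20 weeks (adjusted p = 0.85).

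Esam, an adhesion molecule of endothelium and stem cells, and Pdzk1ip1, a small membrane protein also called MAP17, were low at 2 weeks and high at 20 weeks. Esam had 25 and 17.6 CPM in mutant and 18.9 and 23.9 CPM in WT untreated libraries and 9.14 and 8.61 CPM in mutant and 9.64 and 6.51 CPM in WT 2-week libraries. At 20 weeks Esam had 53.6 and 47.5 CPM in mutant and 45.6 and 29.5 CPM in WT libraries, with no overlap between the 3. Its log2 change was -1.25 ± 0.16 at 2 weeks (adjusted p = 3.16e-06) and 1.38 ± 0.16 at 20 weeks (adjusted p = 1.19e-05). Pdzk1ip1, which lies near Tal1 on chromosome 4 (114945905 to 114951096, with Tal1 at 114913623 to 114928952, mm39, both on the plus strand), had 27.9 and 20.5 CPM in mutant and 22.9 and 33.3 CPM in WT untreated libraries and 7.09 and 9.94 CPM in mutant and 12.4 and 12.6 CPM in WT 2-week libraries. At 20 weeks Pdzk1ip1 had 76.2 and 51.6 CPM in mutant and 48.2 and 29.1 CPM in WT libraries. At 2 weeks Tal1 and Pdzk1ip1 were called in opposite directions, with Pdzk1ip1 at -1.26 ± 0.17 (adjusted p = 6.67e-06). At 20 weeks Pdzk1ip1 rose by 1.27 ± 0.17 (adjusted p = 4.51e-05), which was not called in WT libraries alone.

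The angiopoietin system split by member. Angpt1, the ligand, had 413 and 309.5 CPM in mutant and 447 and 469 CPM in WT untreated libraries and 120.4 and 141 CPM in mutant and 161 and 169 CPM in WT 2-week libraries. At 20 weeks Angpt1 had 286 and 415 CPM in mutant and 434 and 294 CPM in WT libraries. Its receptor Tek had 13.1 and 7.85 CPM in mutant and 12.7 and 12.4 CPM in WT untreated libraries and 11.7 and 16.9 CPM in mutant and 12.6 and 11.5 CPM in WT 2-week libraries. At 20 weeks Tek had 18.4 and 23.5 CPM in mutant and 26.2 and 14.4 CPM in WT libraries. Tie1, the related receptor that modifies Tek signalling, had 51.6 and 35.2 CPM in mutant and 50.3 and 62.6 CPM in WT untreated libraries and 12.7 and 20.4 CPM in mutant and 31.8 and 22.6 CPM in WT 2-week libraries. At 20 weeks Tie1 had 73.6 and 86.3 CPM in mutant and 81.2 and 64 CPM in WT libraries. At 2 weeks the ligand and Tie1 lay below every untreated library while Tek overlapped them. The log2 changes at 2 weeks were -1.38 ± 0.14 for Angpt1 (adjusted p = 2.49e-07), -1.14 ± 0.16 for Tie1 (adjusted p = 9.63e-06) and 0.27 ± 0.20 for Tek (adjusted p = 0.276). At 20 weeks Tek rose by 1.19 ± 0.20 (adjusted p = 0.000373) and Tie1 by 0.98 ± 0.16 (adjusted p = 0.000251), which was not called in WT libraries alone, and Angpt1 stood at 0.17 ± 0.14 (adjusted p = 0.408).

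Robo4, a guidance receptor that anchors stem cells in the niche, had 40.2 and 34.3 CPM in mutant and 20.9 and 30.5 CPM in WT untreated libraries and 3.5 and 8.99 CPM in mutant and 5.46 and 4.82 CPM in WT 2-week libraries. At 20 weeks Robo4 had 33.5 and 31.3 CPM in mutant and 23.1 and 18.8 CPM in WT libraries. It fell 5.2-fold at 2 weeks (log2 -2.38 ± 0.22, adjusted p = 1.23e-07) and stood at 0.11 ± 0.20 at 20 weeks (adjusted p = 0.755). Cd34, carried by most progenitors and by fewer of the most quiescent stem cells, had 967 and 769.9 CPM in mutant and 971 and 1045 CPM in WT untreated libraries and 417 and 552 CPM in mutant and 626 and 589.6 CPM in WT 2-week libraries. At 20 weeks Cd34 had 642 and 528 CPM in mutant and 695 and 562 CPM in WT libraries. Both transplant times lay below every untreated CPM value, with log2 changes of -0.70 ± 0.11 at 2 weeks (adjusted p = 4.12e-05) and -0.27 ± 0.11 at 20 weeks (adjusted p = 0.0836). Eng, the TGF-beta co-receptor endoglin, had 124 and 106 CPM in mutant and 94.8 and 118 CPM in WT untreated libraries and 123 and 144 CPM in mutant and 145 and 142 CPM in WT 2-week libraries. At 20 weeks Eng had 119 and 120.1 CPM in mutant and 108 and 105 CPM in WT libraries. It rose by 0.41 ± 0.11 at 2 weeks (adjusted p = 0.00452), not called in mutant libraries alone. At 20 weeks its CPM values stayed inside the untreated range, and its log2 change of 0.39 ± 0.11 (adjusted p = 0.0142) was 0.03 without the TMM scaling. That call was lost in either genotype alone and kept in 5 of 8 refits that left out 1 library. Of 11 endothelial markers 3 rose and 2 fell at 2 weeks, and 1 rose and 1 fell at 20 weeks, and their summed share was 0.0164 to 0.0188% of counts untreated, 0.0738 to 0.0789% at 2 weeks and 0.0136 to 0.0172% at 20 weeks. At 2 weeks Aqp1 rose by 5.42 ± 0.40 on the log2 scale, Plvap by 2.50 ± 0.36 and Fabp4 by 2.38 ± 0.55, while Emcn stood at -1.99 ± 0.19 and Stab2 at -1.73 ± 0.41, both called lower. Cdh5, Kdr and Cldn5 of the same list, which were not called, reached at most 3.36, 4.25 and 1.06 CPM in any HSPC library. The part of such cells in the surface protein values was not tested.

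Among the intracellular proteins, Txnip, which binds thioredoxin, limits glucose uptake and is known for stem cell quiescence, moved in opposite directions at the transplant times. Txnip had 612 and 525 CPM in mutant and 714 and 737 CPM in WT untreated libraries and 188 and 227 CPM in mutant and 292 and 238 CPM in WT 2-week libraries. At 20 weeks Txnip had 1164 and 1267 CPM in mutant and 1125 and 943 CPM in WT libraries, with no overlap between the 3. Its log2 change was -1.37 ± 0.11 at 2 weeks (adjusted p = 1.29e-08) and 1.16 ± 0.11 at 20 weeks (adjusted p = 1.37e-06). Fgd5, an exchange factor for small GTPases whose locus is used to mark stem cells, had 25.4 and 17.4 CPM in mutant and 15.3 and 24.6 CPM in WT untreated libraries and 5.56 and 6.33 CPM in mutant and 3.35 and 2.81 CPM in WT 2-week libraries. At 20 weeks Fgd5 had 18.1 and 31.6 CPM in mutant and 27.1 and 17 CPM in WT libraries. It fell 4.55-fold at 2 weeks (log2 -2.19 ± 0.22, adjusted p = 2.14e-07), and its 20-week change of 0.54 ± 0.21 did not pass (adjusted p = 0.0649). Sult1a1, a sulfotransferase enriched in stem cells, had 6.68 and 3.47 CPM in mutant and 3.88 and 4.8 CPM in WT untreated libraries and 3.92 and 1.37 CPM in mutant and 0.887 and 2.12 CPM in WT 2-week libraries. At 20 weeks Sult1a1 had 20.9 and 16.9 CPM in mutant and 22 and 8.41 CPM in WT libraries. It rose by 2.19 ± 0.38 at 20 weeks (adjusted p = 0.000709), above every untreated library, and its lower 2-week level (-1.12 ± 0.38, adjusted p = 0.0224) lost its call in 4 of 8 refits that left out 1 library. Cdkn1c, the cell cycle inhibitor p57, had 6.03 and 4.71 CPM in mutant and 6.37 and 5.36 CPM in WT untreated libraries and 0.0201 and 2.16 CPM in mutant and 1.52 and 1.82 CPM in WT 2-week libraries. At 20 weeks Cdkn1c had 7.95 and 6.06 CPM in mutant and 6.82 and 5.75 CPM in WT libraries. The lowest value, 1 read in mutant 2-week replicate 1, is part of its 2-week change of -2.02 ± 0.71 (adjusted p = 0.0388), which kept its call in 2 of 8 refits that left out 1 library and ranged between -4.75 and -1.52. Its 20-week change was 0.59 ± 0.67 (adjusted p = 0.572). Socs2, a brake on cytokine signalling, and Ctnnal1, the alpha-catulin gene used as a stem cell reporter, were called at neither time, with Socs2 at 12.7 to 19.3, 11.8 to 25.9 and 13.7 to 18.9 CPM and Ctnnal1 at 11.8 to 14, 9.75 to 12.6 and 10.1 to 18.9 CPM in untreated, 2-week and 20-week libraries.

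**Figure D3:**
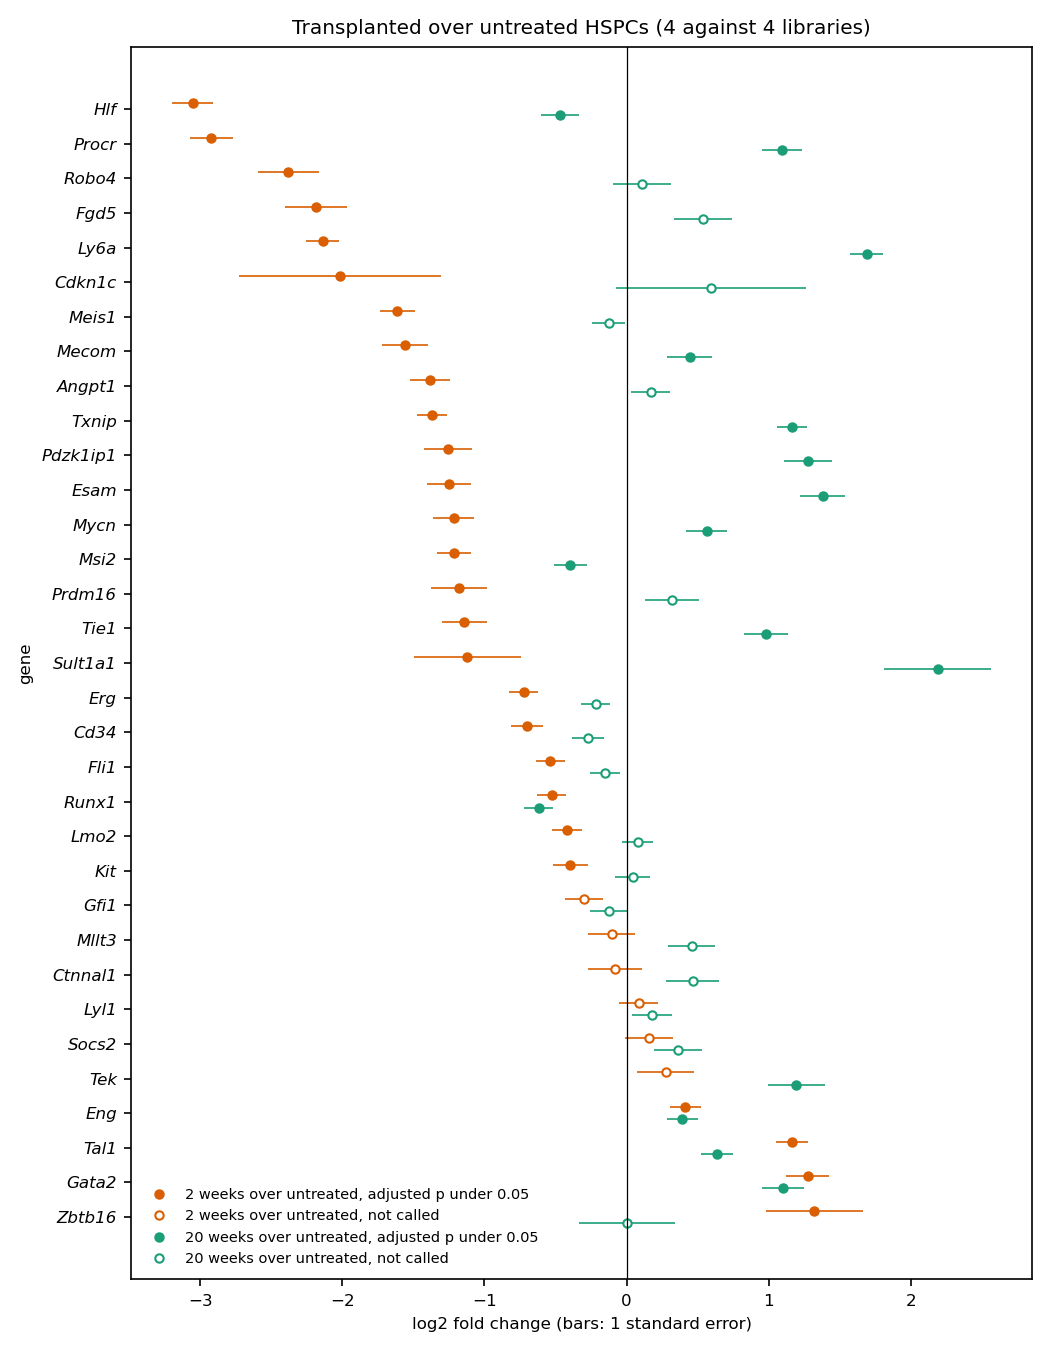
Log2 fold change over untreated HSPCs at 2 weeks (orange) and 20 weeks (green) for each of the 33 genes, genotypes pooled, 4 against 4 libraries; bars are 1 standard error and filled points have an adjusted p under 0.05. Hlf at -3.05 and Procr at -2.92 lead the 2-week losses, and Sult1a1 at 2.19 and Ly6a at 1.69 lead the 20-week gains. Both sets share the untreated libraries.

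Another 39 genes linked to stem cells were counted as a wider list, also chosen with results known. At 2 weeks 26 of them fell and 5 rose, with a median log2 change of -0.92, and at 20 weeks 14 rose and 2 fell, with a median of 0.30. Among those with the lowest p at 2 weeks were Gfi1b at 3.28 ± 0.14 (adjusted p = 6.57e-12), the integrin Itga2b at 2.82 ± 0.16 (adjusted p = 2.64e-10) and Hoxa9 at -1.92 ± 0.14 (adjusted p = 5.49e-09). At 20 weeks they were Vwf at 2.74 ± 0.17 (adjusted p = 2.71e-08), Itga2b at 1.60 ± 0.15 (adjusted p = 2.28e-06), Hoxa9 at -1.21 ± 0.14 (adjusted p = 1.09e-05) and the SLAM receptor Slamf1 at 2.01 ± 0.27 (adjusted p = 6.28e-05). Itga2b and Vwf are also megakaryocyte genes. Plasma cell markers moved beside the 20-week changes: all 8 rose, and their summed share was 1.12 to 1.7% of counts at 20 weeks, against 0.357 to 0.697% untreated. Of 12 granulocyte markers 10 fell at 20 weeks, where they took 0.00333 to 0.0117% of counts, and of the 20 progenitor genes 6 rose and 7 fell. Whether these other cells bear on the stem cell genes was not tested. Without WT untreated replicate 1 the 33 genes gave 4 rises and 22 falls at 2 weeks, and 11 rises and 3 falls at 20 weeks, where 8083 and 3299 of all 21725 genes were called. Within a genotype, WT libraries alone gave 4 rises and 20 falls at 2 weeks and mutant libraries alone gave 2 and 20, beside 5820 and 6690 of all 19522 genes called in either direction. At 20 weeks WT libraries alone gave 7 rises and no fall, and mutant libraries alone gave 10 rises and 1 fall. Over all genes these 20-week comparisons called 861 in WT and 2825 in mutant libraries, against 4612 with genotypes pooled. Those 7 genes were Ly6a, Txnip, Esam, Procr, Gata2, Tek and Sult1a1.

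Promoter sequence was available for 25 of the 33 genes, as 36 promoters in RefSeq's table for build GRCm38.p6, which differs from the build of the counted annotation. In the 250 bases before each start site, 4 motifs of factors in the list were searched on both strands. The GATA motif AGATAA was in 2 of the 36 promoters (Erg and Tal1), against 3281 of 32851 promoters of the table. The E-box CAGATG was in 5 (Eng, Mecom, Mllt3, Pdzk1ip1 and Tie1), against 4745, and the ETS motif CGGAAG was in 5 (Lyl1, Mecom, Meis1, Procr and Tie1), against 4466. The RUNX motif TGTGGT was in 1 (Meis1), against 4614, a share of up to 14.4% of all promoters for any of the 4. The windows shown belong to the 2 genes that fell most at 2 weeks and to Gata2, Tal1 and Eng, which rose. Bases are lower case, and capitals mark a motif match: the ETS motif in Procr, the GATA motif on the opposite strand in Tal1 and the E-box in Eng.
Hlf, chr11:90390918-90391167, minus strand: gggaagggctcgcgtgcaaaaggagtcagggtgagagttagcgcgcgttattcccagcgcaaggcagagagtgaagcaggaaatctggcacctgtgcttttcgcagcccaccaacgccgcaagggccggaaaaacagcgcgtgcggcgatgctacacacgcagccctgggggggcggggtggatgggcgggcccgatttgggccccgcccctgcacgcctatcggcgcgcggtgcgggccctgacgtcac
Procr, chr2:155750967-155751216, plus strand: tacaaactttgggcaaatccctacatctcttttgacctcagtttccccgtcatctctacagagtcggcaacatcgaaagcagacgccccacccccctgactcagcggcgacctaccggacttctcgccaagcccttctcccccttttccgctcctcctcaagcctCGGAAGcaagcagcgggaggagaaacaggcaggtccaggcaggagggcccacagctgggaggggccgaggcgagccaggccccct
Gata2, chr6:88193641-88193890, plus strand: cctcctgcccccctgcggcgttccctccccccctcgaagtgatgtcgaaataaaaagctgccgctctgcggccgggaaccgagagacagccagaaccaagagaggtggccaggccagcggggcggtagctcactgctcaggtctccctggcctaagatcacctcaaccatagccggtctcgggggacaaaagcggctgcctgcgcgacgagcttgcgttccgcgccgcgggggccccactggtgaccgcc
Gata2, chr6:88198414-88198663, plus strand: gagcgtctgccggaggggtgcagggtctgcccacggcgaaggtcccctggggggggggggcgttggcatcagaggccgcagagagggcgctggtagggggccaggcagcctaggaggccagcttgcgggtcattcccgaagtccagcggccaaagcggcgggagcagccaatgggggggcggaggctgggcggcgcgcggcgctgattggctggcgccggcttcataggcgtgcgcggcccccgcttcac
Tal1, chr4:115056176-115056425, plus strand: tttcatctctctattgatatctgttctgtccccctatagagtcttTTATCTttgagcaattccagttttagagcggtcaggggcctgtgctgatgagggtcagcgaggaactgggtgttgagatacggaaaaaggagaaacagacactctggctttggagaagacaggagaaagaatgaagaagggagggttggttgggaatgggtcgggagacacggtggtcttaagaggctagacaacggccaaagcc
Eng, chr2:32646345-32646594, plus strand: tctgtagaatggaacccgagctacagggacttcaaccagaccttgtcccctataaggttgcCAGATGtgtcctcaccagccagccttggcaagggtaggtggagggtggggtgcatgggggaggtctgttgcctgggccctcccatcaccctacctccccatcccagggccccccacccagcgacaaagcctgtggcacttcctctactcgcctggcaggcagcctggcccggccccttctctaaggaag
The Hlf window and both Gata2 windows held none of the 4 motifs. Tal1 has a second start site in the table, whose window held none of them. A match is a string of letters, not a shown binding site.

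At 12 hours after doxorubicin no stem cell identity gene passed the test against untreated HSPCs with genotypes pooled, where 0.0154% of all genes tested were called. DESeq2 also called 0 of the 33, and 2 had an unadjusted p under 0.05, beside 5.96% of all genes. These were Procr, with 28.6 and 25 CPM in mutant and 31.1 and 33 CPM in WT doxorubicin libraries and a log2 change of -0.35 ± 0.14 (adjusted p = 0.819), and Hlf, with 299 and 373 CPM in mutant and 538 and 503 CPM in WT doxorubicin libraries and a change of -0.28 ± 0.13 (adjusted p = 0.837). The median log2 change was -0.09 over the 33 genes and 0.001 over all genes. Ly6a held 142 to 201 CPM after the drug, against 165 to 206 CPM untreated.

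The comparison of Srcap mutant with WT HSPCs asked whether the mutation alters stem cell identity genes in each condition. In edgeR's quasi-likelihood test none of the 33 genes passed in any of the 4 conditions or in the mean over them, beside 0% of all genes tested in untreated HSPCs, 0.0154% after doxorubicin, 0.138% at 2 weeks, 0.00512% at 20 weeks and 0.133% in the mean. In simulated untreated libraries 24 of 100 genes changed 2-fold and 56 of 100 changed 4-fold were recovered among 18473 genes. The changed genes were drawn at random from all of these, so a change of this size could be missed in such a gene. How often it would be missed in the 33 genes, at their own counts, was not simulated. At an unadjusted p under 0.05 the list gave 1 gene untreated, 13 after doxorubicin, 10 at 2 weeks, 3 at 20 weeks and 13 in the mean, beside 4.82%, 9.79%, 8.76%, 3.8% and 9.88% of all genes. DESeq2 called 0, 4, 1, 0 and 2 of the 33 in the same order, and 155, 307, 293, 19 and 364 of all 29524 genes it was given, where edgeR had called 0, 3, 27, 1 and 26 of 19522.

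In untreated HSPCs the 3 genes with the lowest p were Txnip, Socs2 and Gfi1, none called. They were picked by their p, so a split of mutant from WT libraries in them adds no support. Txnip had 612 and 525 CPM in mutant and 714 and 737 CPM in WT libraries, with both mutants lower (log2 -0.38 ± 0.15, adjusted p = 0.87). Socs2 had 18.6 and 19.3 CPM in mutant and 14.2 and 12.7 CPM in WT libraries, with both mutants higher (0.47 ± 0.24, adjusted p = 1). Gfi1 had 55.1 and 52.1 CPM in mutant and 38.9 and 43 CPM in WT libraries, again with both mutants higher (0.36 ± 0.19, adjusted p = 1). WT replicate 1 of this comparison is the library rich in granulocyte genes, all 12 of which had an unadjusted p under 0.05 here. Their part in these values was not tested, and no member was called without that library.

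After doxorubicin 12 of the 13 genes with an unadjusted p under 0.05 were lower in mutants, and Gfi1 was higher. Txnip had 488 and 469.9 CPM in mutant and 792 and 717 CPM in WT libraries (-0.71 ± 0.15, adjusted p = 0.0964). Kit had 391 and 364 CPM in mutant and 601 and 567 CPM in WT libraries (-0.69 ± 0.18, adjusted p = 0.177). Hlf had 299 and 373 CPM in mutant and 538 and 503 CPM in WT libraries (-0.69 ± 0.19, adjusted p = 0.198). In each of the 3 genes both mutant libraries lay below both WT libraries, with fitted levels 1.61-fold to 1.64-fold lower, and none passed the threshold. The 3 were picked by their p, so the lack of overlap adds no support. Adjusted p was under 0.05 for all 3 in DESeq2 (0.000252 for Txnip, 0.0164 for Kit and 0.0265 for Hlf), in the doxorubicin libraries fitted alone (0.02 for Txnip, 0.0215 for Kit and 0.0291 for Hlf) and without a count filter. The doxorubicin libraries alone gave 256 calls among all 16574 genes tested, and the fit without a count filter 474 of 29524, against 3 of 19522 with all HSPC libraries. DESeq2 added Cd34 (809.7 and 712 CPM in mutant and 1100.2 and 1029 CPM in WT libraries) and the other 2 fits added Mecom (38.7 and 49 CPM in mutant and 66.3 and 68.8 CPM in WT libraries). The remaining genes lower at an unadjusted p under 0.05 were Tal1, Pdzk1ip1, Angpt1, Ly6a, Tie1, Lmo2 and Meis1. Over the 33 genes 26 were lower and 7 higher in mutants, with a median log2 change of -0.28 against 0.01 over all genes. The difference between this effect and the one in untreated cells, tested as an interaction, was called for 0 of the 33 in edgeR and in DESeq2 and had an unadjusted p under 0.05 for Kit alone (adjusted p = 1 in edgeR), beside 2.82% of all genes. Markers of other cells differed beside these genes. Of 8 plasma cell markers 7 were lower in mutants (median log2 change -0.52, 5 at an unadjusted p under 0.05), and they took 0.318 and 0.254% of counts in mutant doxorubicin libraries, against 0.581 and 0.494% in WT. Of 8 megakaryocyte markers tested 6 were lower (median -0.47, 4 at an unadjusted p under 0.05), at 0.0125 and 0.0135% of counts in mutant libraries, against 0.019 and 0.0181% in WT. T cell markers were higher for 8 of 10 (4 at an unadjusted p under 0.05) and B cell markers for 8 of 10 (1 at an unadjusted p under 0.05), the B cell share being 0.197% in each mutant library, against 0.122 and 0.158% in WT. No marker of these lists was called, and their part was not tested.

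At 2 weeks 4 genes were higher and 6 lower in mutants at an unadjusted p under 0.05. Mycn had 12.7 and 14.6 CPM in mutant and 25.9 and 23.2 CPM in WT libraries (-0.81 ± 0.21, adjusted p = 0.16). Fgd5 had 5.56 and 6.33 CPM in mutant and 3.35 and 2.81 CPM in WT libraries (0.98 ± 0.31, adjusted p = 0.313). Socs2 had 25.9 and 17 CPM in mutant and 11.8 and 14.3 CPM in WT libraries (0.76 ± 0.24, adjusted p = 0.325). Groups of 2 did not overlap in any of the 3, which were picked by their p, so this adds no support. None passed in the main fit. Mycn was called by DESeq2 (adjusted p = 0.038) and without a count filter (adjusted p = 0.0068). Fgd5 and Tie1 were called without a count filter (adjusted p = 0.0323 and 0.0369), where 399 of all 29524 genes were. Erg and Prdm16 were the other 2 on the higher side, and Tie1, Meis1, Gata2, Pdzk1ip1 and Txnip the others on the lower side. Without mutant replicate 2 edgeR called 5 genes, Cdkn1c, Tie1, Meis1, Socs2 and Mllt3, and 672 of all 21720 genes tested, against 27 of 19522 with that library. The comparison then rests on mutant replicate 1, which held 1 read of Cdkn1c, and that lone library is assumed to vary like the other groups. The mutant 2-week libraries detected fewer genes, 17795 and 18326, against 21603 and 19903 in WT. B cell markers took 0.123 and 0.082% of counts in mutant libraries, against 0.0434 and 0.0662% in WT, with 8 of 10 at an unadjusted p under 0.05. Megakaryocyte markers were lower for 7 of 8 (median log2 change -0.83, 4 at an unadjusted p under 0.05) and took 0.015 and 0.0178% of counts in mutant libraries, against 0.0323 and 0.0243% in WT. The part of either in these differences was not tested. The difference from the untreated effect was called for 0 of the 33 in edgeR and in DESeq2 (1, Cdkn1c, without mutant 2-week replicate 2, where 168 of all 21720 genes were called), and Mycn, Gfi1 and Fgd5 had an unadjusted p under 0.05 there, beside 7.34% of all genes.

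At 20 weeks the 3 genes with the lowest p were all higher in mutants and none was called. Pdzk1ip1 had 76.2 and 51.6 CPM in mutant and 48.2 and 29.1 CPM in WT libraries (0.70 ± 0.23, adjusted p = 1). Gfi1 had 42.6 and 36.1 CPM in mutant and 31.7 and 26 CPM in WT libraries (0.42 ± 0.19, adjusted p = 1). Robo4 had 33.5 and 31.3 CPM in mutant and 23.1 and 18.8 CPM in WT libraries (0.60 ± 0.29, adjusted p = 1). Both mutant values exceeded both WT values in all 3, which were picked by their p, so this adds no support. The difference from the untreated effect was called for 0 of the 33 in edgeR and in DESeq2, and had an unadjusted p under 0.05 for Pdzk1ip1 and Txnip, beside 4.66% of all genes. In the mean over the 4 conditions Txnip (-0.30 ± 0.07, adjusted p = 0.124), Cd34 (-0.30 ± 0.08, adjusted p = 0.153) and Tie1 (-0.38 ± 0.11, adjusted p = 0.198) had the lowest p, all lower in mutants. Txnip was not lower in every condition: at 20 weeks it held 1164 and 1267 CPM in mutant and 1125 and 943 CPM in WT libraries. DESeq2 called Txnip (adjusted p = 0.00356) and Cd34 (adjusted p = 0.00887) in the mean. Single libraries decided this count in edgeR: it was 5 without mutant 2-week replicate 2, 3 without mutant 20-week replicate 2 and 1, Robo4, without mutant 2-week replicate 1. Over all genes these 3 refits called 316 of 21720, 138 of 21564 and 44 of 21432, against 26 of 19522 with every library. In the wider list of stem cell genes 2 fell in mutants at 2 weeks, Ndn and Bmpr1a, and none passed in the untreated, doxorubicin or 20-week comparison.

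**Figure D4:**
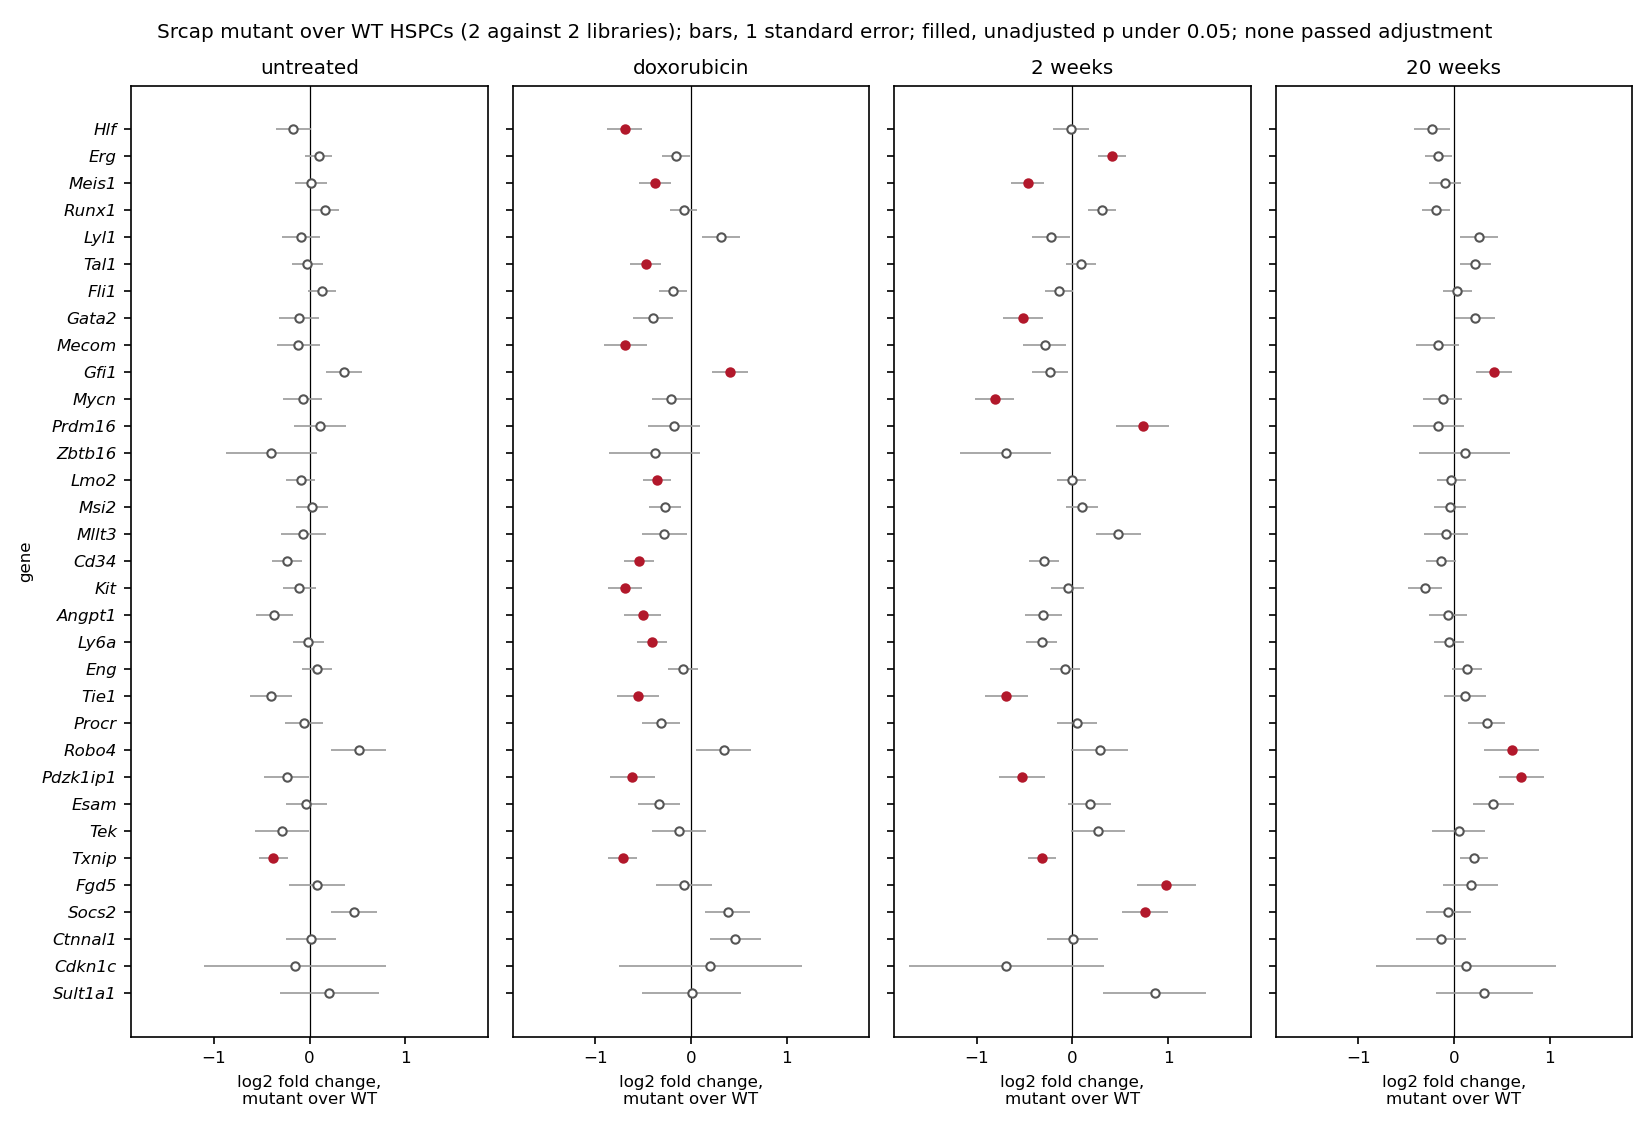
Log2 fold change of Srcap mutant over WT HSPCs for each of the 33 genes in untreated, doxorubicin, 2-week and 20-week libraries, 2 against 2; bars are 1 standard error and filled points have an unadjusted p under 0.05. No gene passed after adjustment over all 19522 genes tested, and the doxorubicin panel has the most filled points, 13.

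Against the mature-cell libraries of the same 2-week transplants, the list separated into genes that were nearly absent outside HSPCs and genes that were not. Of the 33 genes 24 were higher and 3 lower in HSPC than in B cell libraries, beside 25.5% and 28.3% of all 19018 genes tested. Against T-labelled libraries 25 were higher and 6 lower, beside 29.3% and 32.6%. The B cell libraries held other cells' RNA as well: erythroid markers took 0.706 to 1.86% of their counts and granulocyte markers 0.378 to 1.35%, beside 0.794 to 1.06% for B cell markers, and the erythroid share was above the B cell share in 3 of 4. In HSPC against B cell libraries 7 of 9 erythroid and 7 of 12 granulocyte markers were called lower, beside 9 of 10 B cell markers. What these cells add to the values of the 33 genes was not tested. The median log2 change was 2.93 over B cell libraries and 2.82 over T-labelled libraries, against -0.06 and -0.03 over all genes. TMM scaling takes 0.13 off the log2 change against B cell libraries and 0.84 off that against T-labelled libraries. Without it 26 genes were higher and 2 lower against T-labelled libraries, and the median over all genes was 0.79. The share of all genes called is not given for that setting, so these unscaled counts are not read as a result about the 33 genes.

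Endothelial-type surface genes and Fgd5 were at the zero end. Tek had 11.7 and 16.9 CPM in mutant and 12.6 and 11.5 CPM in WT HSPC libraries, against 0 reads in all 4 B cell libraries, so it was at least 221-fold higher in HSPCs (floor of 3 reads per library). Fgd5 had 5.56 and 6.33 CPM in mutant and 3.35 and 2.81 CPM in WT HSPC libraries and 0 reads in B cell libraries, at least 75.7-fold higher. Procr had 4.44 and 5.08 CPM in mutant and 5.32 and 4.1 CPM in WT HSPC libraries and 2 reads in all B cell libraries together, a ratio of 468 with a 95% counting interval of 129 to 3871. Tie1 had 12.7 and 20.4 CPM in mutant and 31.8 and 22.6 CPM in WT HSPC libraries, against 0 and 0 CPM in mutant and 0.06 and 0.0983 CPM in WT B cell libraries, with a fitted log2 change of 10.26 ± 0.60 (adjusted p = 9.81e-09). Esam had 9.14 and 8.61 CPM in mutant and 9.64 and 6.51 CPM in WT HSPC libraries, against 0 and 0 CPM in mutant and 0.12 and 0 CPM in WT B cell libraries (9.13 ± 1.04, adjusted p = 8.58e-06). The intervals and floors cover counting error only. They and the ratio are scaled to library totals, without the TMM scaling of the fitted changes. For the counts at or near 0 the fitted changes depend on the prior count and are no bounds.

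Over T-labelled libraries the 5 widest were Mecom, Tek, Mycn, Procr and Angpt1. Mecom had 17.3 and 18.1 CPM in mutant and 19.3 and 24.8 CPM in WT HSPC libraries and 1 read in all T-labelled libraries together, a ratio of 4035 with a 95% counting interval of 724 to 159444. Tek also had 1 read there, a ratio of 2567 with an interval of 460 to 101431. These ratios are scaled to library totals only, while the fitted changes also use TMM, which takes 0.84 off the log2 change here. Mycn had 12.7 and 14.6 CPM in mutant and 25.9 and 23.2 CPM in WT HSPC libraries, against 0 and 0 CPM in mutant and 0.299 and 0.0245 CPM in WT T-labelled libraries (9.21 ± 0.64, adjusted p = 2.77e-08). Procr was at 0 and 0 CPM in mutant and 0.107 and 0.171 CPM in WT T-labelled libraries (7.39 ± 0.93, adjusted p = 1.67e-05). Angpt1 had 120.4 and 141 CPM in mutant and 161 and 169 CPM in WT HSPC libraries, against 0.512 and 0.977 CPM in mutant and 0.748 and 0.514 CPM in WT T-labelled libraries (6.89 ± 0.22, adjusted p = 6.66e-12). Kit was 67.6-fold higher in HSPC than in B cell libraries, and 7.49-fold higher than in T-labelled ones, where it held 32.1 and 28.6 CPM in mutant and 27 and 23.7 CPM in WT libraries. Hlf was 9.82-fold higher in HSPC than in T-labelled libraries, at 3.99 and 2.53 CPM in mutant and 3.93 and 2.81 CPM in WT libraries.

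Txnip, Fli1 and Pdzk1ip1 were lower in HSPC than in both mature-cell sets. Txnip had 188 and 227 CPM in mutant and 292 and 238 CPM in WT HSPC libraries, against 487 and 506 CPM in mutant and 454 and 480.0 CPM in WT B cell libraries (-1.17 ± 0.09, adjusted p = 8.86e-08) and 736 and 780.1 CPM in mutant and 698 and 761 CPM in WT T-labelled libraries (-2.51 ± 0.10, adjusted p = 2.59e-11). Fli1 had 59.3 and 75.1 CPM in mutant and 75.5 and 75.6 CPM in WT HSPC libraries, against 119.8 and 120.1 CPM in mutant and 108 and 108 CPM in WT B cell libraries (-0.81 ± 0.09, adjusted p = 2.59e-06) and 103 and 91 CPM in mutant and 96.4 and 91.3 CPM in WT T-labelled libraries (-1.26 ± 0.09, adjusted p = 1.33e-08). Pdzk1ip1 had 7.09 and 9.94 CPM in mutant and 12.4 and 12.6 CPM in WT HSPC libraries, against 11 and 11.1 CPM in mutant and 33 and 22.8 CPM in WT B cell libraries (-0.90 ± 0.21, adjusted p = 0.00217) and 6.87 and 5.48 CPM in mutant and 15.6 and 9.4 CPM in WT T-labelled libraries (-0.61 ± 0.21, adjusted p = 0.0201). The last value lost its call in 4 of 8 refits that left out 1 library and turned to 0.23 without the TMM scaling. The B cell and T-labelled libraries held RNA of other cells as well, so these values do not show which cells carried the 3 genes there. The 2-week HSPC level of the 3 genes is itself below the untreated one. Ctnnal1 and Gfi1 completed the low end against B cell libraries without a call, at -0.40 ± 0.34 (adjusted p = 0.332) and -0.04 ± 0.15 (adjusted p = 0.838), and Gfi1 changed sign in 3 alternative fits and 3 refits that left out 1 library. Against T-labelled libraries Gfi1 fell by 0.95 ± 0.15 on the log2 scale (adjusted p = 5.68e-05), with 24.6 and 41.3 CPM in mutant and 41.2 and 37.5 CPM in WT HSPC libraries and 42.4 and 35 CPM in mutant and 39.5 and 37.7 CPM in WT T-labelled libraries, which was -0.11 and not called without the TMM scaling. Zbtb16 fell by 0.88 ± 0.31 (adjusted p = 0.0245), lost in 4 of 8 refits that left out 1 library, and without the TMM scaling was at -0.03.

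**Figure D5:**
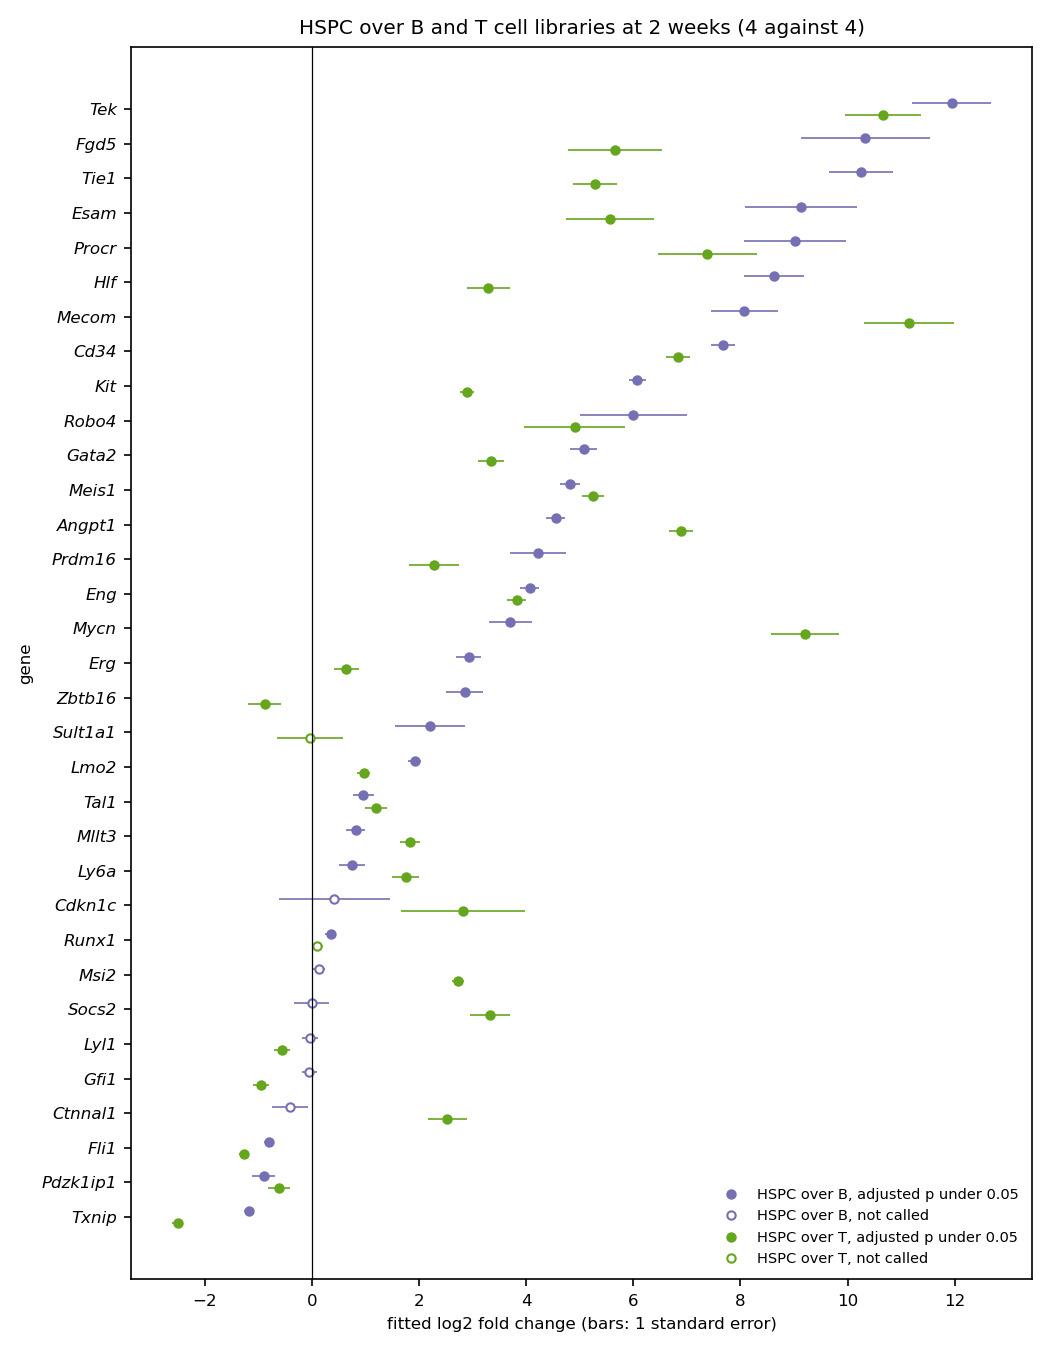
Fitted log2 fold change of 2-week HSPC over B cell libraries (purple) and over T-labelled libraries (green) for each of the 33 genes, genotypes pooled, 4 against 4; bars are 1 standard error and filled points have an adjusted p under 0.05. Tek tops the B cell contrast with 0 reads in B cells, and Txnip is lowest in both, at -1.17 and -2.51.

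Within the B cell libraries and within the T-labelled libraries edgeR called 0 of the 33 genes between mutant and WT, beside 0.0684% and 0.00526% of all genes, and 6 genes in each had an unadjusted p under 0.05, beside 8.04% and 4.85%. DESeq2 called 2 in B cell libraries, Pdzk1ip1 and Meis1, and 0 in T-labelled ones, beside 215 and 23 of all 27760 genes it was given, where edgeR had called 13 and 1 of 19018. Pdzk1ip1 had 11 and 11.1 CPM in mutant and 33 and 22.8 CPM in WT B cell libraries (-1.34 ± 0.30, adjusted p = 0.155). Erythroid markers differed beside it. All 9 were lower in mutants, none called, with a median log2 change of -0.58 in B cell and -0.65 in T-labelled libraries. They took 1.31 and 0.706% of counts in mutant and 1.86 and 1.04% in WT B cell libraries. In T-labelled libraries they took 0.696 and 0.326% in mutant and 1.07 and 0.61% in WT. Their part was not tested. Meis1 had 2.94 and 2.66 CPM in mutant and 1.54 and 1.06 CPM in WT B cell libraries (1.10 ± 0.26, adjusted p = 0.178) and 1.11 and 1.13 CPM in mutant and 0.663 and 0.661 CPM in WT T-labelled libraries (0.89 ± 0.29, adjusted p = 0.905). It was higher in both mutant libraries of each, at a level far under that in HSPCs, where it was lower in mutants (-0.47 ± 0.17, adjusted p = 0.393). The difference between the mutant effects, tested as an interaction over all genes, was 1.62 ± 0.34 between B cell and HSPC libraries (adjusted p = 0.272) and 1.41 ± 0.37 between T-labelled and HSPC libraries (adjusted p = 0.561), and neither passed.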

How the data were processed

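Messenger RNA was sequenced in 24 libraries (stranded TruSeq kit, per the labels). The deposited files hold whole-number read counts per gene, made by the authors with featureCounts 2.0.1 on paired, reverse-stranded reads over GENCODE M28 exons, as the file headers record. STAR and the builds mm39 and mm10 are named in the submitters' processing notes. Symbols were found for 52081 of 55414 IDs, which hold 99.85% of counts.

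Models were fitted with edgeR 4.0.16 (R 4.3.3; quasi-likelihood test, robust, TMM scaling, filterByExpr with minimum counts of 10 and 15 in total): 1 over 16 HSPC libraries (19522 genes) and 1 over 12 libraries taken at 2 weeks (19018 genes). P-values were adjusted by Benjamini-Hochberg over all genes tested. CPM use library totals, and TPM use exon lengths. Standard errors are the log2 change over the square root of F. Alternatives were RLE size factors, no count filter, a replicate block, the compared groups alone, immunoglobulin genes left out, DESeq2 1.42.0 and leaving out each library; no scaling and single genotypes were added after seeing the data. On simulated counts for untreated libraries the fit made 6 false calls among 18473 genes.

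Correlations of the deviations of same-numbered libraries were between -0.043 and 0.021. With 2 libraries per group this cannot exclude a pairing, and the labels give none, so the main fits used no block. Named genes were members called in an HSPC comparison, the 3 lowest p in each genotype comparison, and the 5 widest and 5 smallest changes against B cell and T-labelled libraries. The members and lists were chosen with earlier results of these data known. Some results of the wider stem cell list are not reported here.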

Additional observations from a re-analysis of the deposited data

How the results depend on the processing

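Counts of called members at 2 weeks, 20 weeks and against B cell and T-labelled libraries stayed within 1.5 times of 27, 16, 27 and 31 under every alternative run, except that WT libraries alone gave 7 at 20 weeks. The totals hide changes in which genes were called. Without scaling, 17 were called at 20 weeks, 9 higher and 8 lower, and 12 of them were among the 16. Against T-labelled libraries 28 were then called, 26 higher and 2 lower, and 27 of them were among the 31. Leaving out 1 library gave 24 to 28, 13 to 16, 25 to 27 and 28 to 29. Mutant against WT, the count of 0 became 4 after doxorubicin without a count filter, 4 with DESeq2 and 4 with the compared groups alone. At 2 weeks it became 3 without a count filter, 1 with DESeq2 and 0 to 5 when 1 library was left out. In the mean over conditions it became 5, 2 and 0 to 5 under the same alternatives. In B cell libraries it became 6 without a count filter and 2 with DESeq2, and in T-labelled libraries 1 without a count filter. Calls over all genes rose too without a count filter, from 3 to 474 after doxorubicin and from 27 to 399 at 2 weeks. Those of the mean, the B cell and the T-labelled comparisons are not given here, so their member counts have no share beside them. The 2-week interaction gave 0 to 1 when 1 library was left out. The replicate block gave 27, 15, 27 and 30 for the first 4 counts and 0 for every mutant comparison. Gfi1 against B cell libraries turned to 0.0039 with RLE size factors, 0.0875 without scaling, 0.0037 with DESeq2, and was between -0.2318 and 0.104 with 1 library left out, above 0 in 3 of 8, and Pdzk1ip1 against T-labelled libraries to 0.23 without scaling. The causes were not tested. Of 1232 alternative values of 78 named results, 1128 kept direction and call, 75 lost the call, 22 gained it and 7 changed sign. With 2 libraries per group, genotype changes of the sizes simulated could be missed, and depth limits Cdkn1c and Sult1a1 in HSPCs and the genes near 0 reads in B cell and T-labelled libraries.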
